A study of Homo sapiens with 6 samples.

Results

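The Wnt pathway genes described here are ligands, receptors and regulators chosen by name: genes whose symbol starts with WNT, FZD, DKK, SFRP, LGR or RSPO and a digit, together with AXIN1, AXIN2, LEF1, TCF7, TCF7L1, TCF7L2, LRP5, LRP6, NKD1, NKD2, ZNRF3 and RNF43. The rule uses no values, but earlier results of these data were known when it was set. Of the 14884 genes named on the arrays, 37 fitted this rule, and each was measured by a single probe set. Of these, 35 code for proteins and 2, FZD4-DT and FZD10-AS1, are noncoding RNA genes next to a Frizzled gene. Among the Wnt ligands only WNT2 was measured under a gene name, and among the TCF/LEF factors only LEF1. The other ligands, TCF7, TCF7L1 and TCF7L2 were not analysed here.

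The RNA came from a line of human colonic adenocarcinoma, SK-CO15, that was kept as a mixed population after lentiviral transduction, sorting for high EGFP and selection with puromycin, and grown to confluence. NHE3kd cells carried a pool of U6-driven shRNAs against SLC9A3, which encodes the sodium-proton exchanger NHE3 (3 arrays, labelled 2, 3 and 10). Ctrl cells carried a scrambled shRNA in the same vector (3 arrays, labelled 1, 4 and 9). The comparison asks how gene expression differs when NHE3 is depleted in cells without bacteria or immune cells around them. No source used here says that the samples of a group were separate cultures, so the p-values describe how these samples scatter, and that scatter may be technical.

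Wnt proteins bind a Frizzled receptor together with LRP5 or LRP6, and this stops a destruction complex built on AXIN1 or AXIN2 from marking beta-catenin for degradation. Beta-catenin then enters the nucleus and switches on target genes with TCF/LEF factors. Secreted inhibitors of the Dickkopf and sFRP families block the signal outside the cell. R-spondins, through their LGR receptors, protect Frizzled from removal by the ubiquitin ligases ZNRF3 and RNF43. The pathway maintains the stem cells of the colonic crypt and is switched on in most colon cancers, usually through loss of APC, and several of its inhibitors, AXIN2 among them, are also its targets.

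Each value below is a log2 value from which the authors subtracted the mean of the Ctrl arrays, so the Ctrl mean of every gene is 0 and a value of 1 means a doubling. The values hold no expression level. Levels of different genes can therefore not be compared, a gene that was never detected cannot be told from one that did not change, and colonic markers could not be checked for their presence in either group. A gene was called when its adjusted p was under 0.05 in limma, adjusted by Benjamini-Hochberg across the 48144 probe sets. Column medians lay between -0.018 and 0.0018. SLC9A3 had no named probe set, and its knockdown could not be checked on these arrays. Of 17 measured markers of colonic epithelium, VIL1 was higher (0.77) and GUCA2A lower (-0.19, a call lost whichever array was left out), a called share of 11.8%, against 14.5% of all named genes. The keratin KRT20 had the largest difference of these markers (-0.86), with the NHE3kd arrays all below the Ctrl arrays, but did not pass the test (adjusted p = 0.081 from limma). Of the fits with an array left out, KRT20 passed only without Ctrl 9. It also passed with the label number as covariate (adjusted p = 0.023 from limma) and with named probe sets only (adjusted p = 0.044 from limma). The value for the epithelial adhesion molecule EPCAM was 0.02. Of 11 measured markers of fibroblasts, endothelium and leukocytes, CD68 was lower (-1.51). The part of these differences in the results below was not tested.

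NHE3kd cells differed from Ctrl cells in 7 of the 37 Wnt pathway genes, with 4 of them higher and 3 lower. The secreted inhibitors DKK1 and SFRP5 were 5.01-fold and 1.99-fold lower, and NKD2, an antagonist of the signal transducer Dishevelled, was 1.23-fold lower. The scaffold AXIN2 was 2.16-fold higher, the receptors FZD3 and FZD1 1.85-fold and 1.35-fold, and the R-spondin receptor LGR6 1.51-fold. The other 30 genes did not pass the test and had log2 differences between -0.30 and 0.36. The called share, 18.9%, compares with 14.5% of all named genes, with 9.96% of all named genes called higher and 4.51% called lower. The median log2 difference was 0.00 for the 37 genes and 0.00 for all named genes. On 14 of the 37 genes (37.8%) the 3 NHE3kd arrays did not overlap with the 3 Ctrl arrays, against 35.8% of all named genes. In 7 of the 14 the NHE3kd arrays lay above Ctrl and in 7 below, and the 7 without a call were FZD6, ZNRF3 and FZD4 (above) and DKK2, AXIN1, RSPO2 and FZD10 (below). For a single gene the exact permutation test, two-sided, cannot give a p under 0.10 with groups of this size. Each of the 14 genes without overlap reached that value, called or not, so it adds nothing to the lack of overlap.

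**Figure D1:**
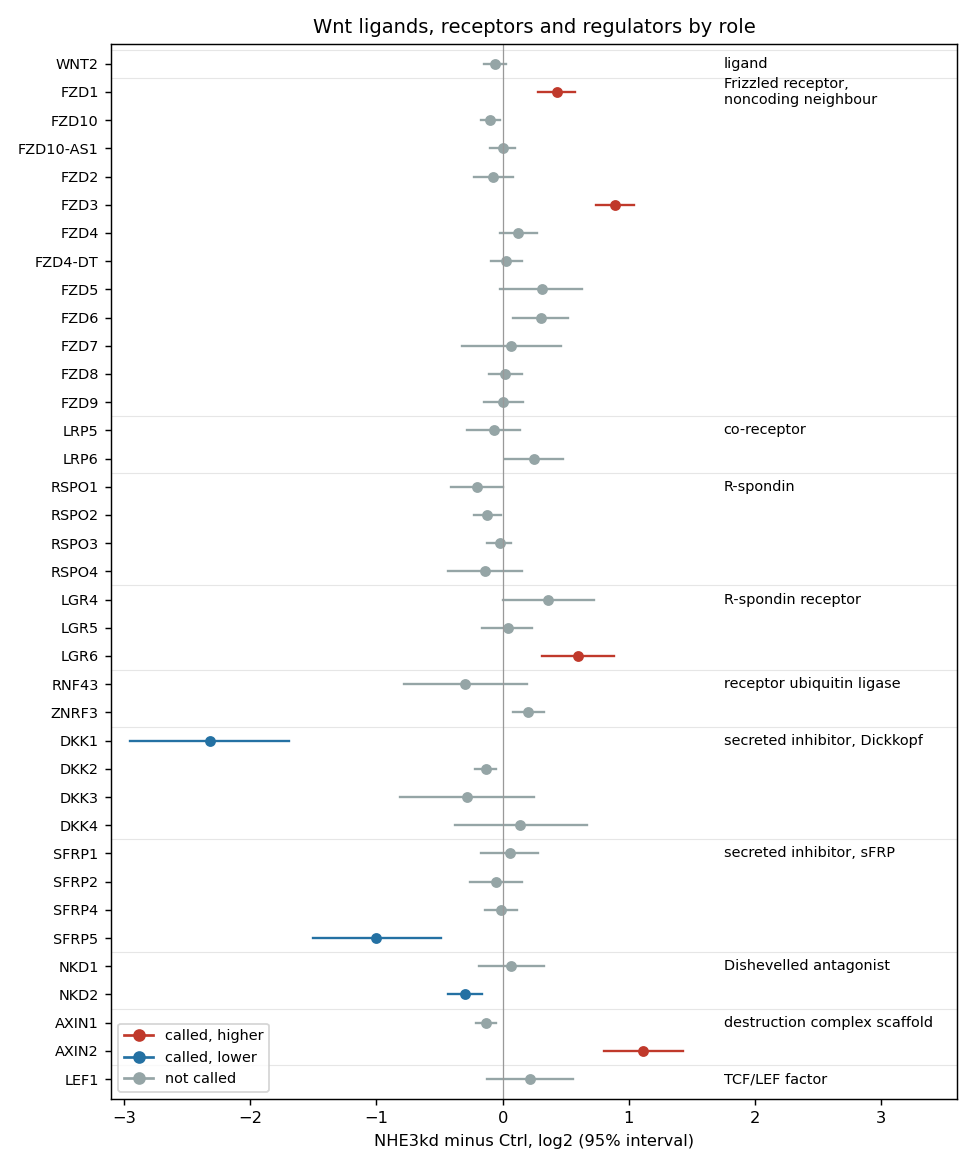
Log2 difference between NHE3kd and Ctrl cells (x axis) for each of the 37 Wnt pathway genes (y axis), ordered by role. Points are limma estimates from 3 NHE3kd and 3 Ctrl arrays and bars are 95% intervals. DKK1 lies farthest from 0 at -2.32, AXIN2 is the highest at 1.11, and the 30 grey genes lie between -0.30 and 0.36.

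DKK1, the Dickkopf protein that binds LRP5 and LRP6 and keeps them from forming a receptor with Frizzled, showed the largest difference of the 37 genes. It stood at -2.77, -2.38 and -1.82 on NHE3kd arrays 2, 3 and 10, against -0.11, -0.11 and 0.21 on Ctrl arrays 1, 4 and 9. All NHE3kd arrays lay far below all Ctrl arrays, and the spread was wider among the NHE3kd arrays (SD 0.48) than among the Ctrl arrays (SD 0.19, n = 3 each). The difference was 5.01-fold lower (log2 -2.32, SE 0.25, adjusted p = 0.0076 from limma). It kept its call when any single array was left out, with log2 differences from -2.58 to -2.10. After quantile normalization its log2 difference was -1.48.

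SFRP5 encodes a secreted Frizzled-related protein, which can capture Wnt proteins before they reach their receptor. Its values were -0.70, -1.26 and -1.02 on NHE3kd arrays 2, 3 and 10 and 0.12, 0.22 and -0.34 on Ctrl arrays 1, 4 and 9. The groups did not overlap, and the closest arrays were NHE3kd 2 and Ctrl 9. SFRP5 was 1.99-fold lower in NHE3kd cells (95% interval of the log2 difference -1.50 to -0.49, SE 0.20, adjusted p = 0.041 from limma). The call was lost when any array other than Ctrl 9 was left out (adjusted p up to 0.13 from limma).

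The 300 bases around the start of the genes for these fallen inhibitors, from 250 before to 50 after it are shown because both genes fell and DKK1 is itself known as a target of beta-catenin signalling. Capitals mark matches to the TCF/LEF motif, searched on both strands as CTTTG followed by A or T at each of the next 2 bases, so that matches on a strand cannot overlap. Both sequences are from RefSeq on GRCh38.p14 and run 5′ to 3′ on the strand of the gene, DKK1 from chr10:52314031-52314330 on the plus strand and SFRP5 from chr10:97771950-97772249 on the minus strand.
DKK1: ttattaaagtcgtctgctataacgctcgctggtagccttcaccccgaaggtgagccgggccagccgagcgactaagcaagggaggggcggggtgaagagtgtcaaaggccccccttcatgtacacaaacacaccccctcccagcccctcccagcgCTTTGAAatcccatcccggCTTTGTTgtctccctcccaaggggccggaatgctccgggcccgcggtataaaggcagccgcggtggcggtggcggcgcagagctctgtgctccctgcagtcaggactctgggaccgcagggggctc
SFRP5: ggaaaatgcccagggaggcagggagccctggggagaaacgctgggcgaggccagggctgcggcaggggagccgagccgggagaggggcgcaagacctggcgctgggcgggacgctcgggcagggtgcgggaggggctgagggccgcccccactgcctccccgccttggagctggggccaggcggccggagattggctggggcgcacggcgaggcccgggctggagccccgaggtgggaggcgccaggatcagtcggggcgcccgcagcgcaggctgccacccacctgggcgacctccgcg
The DKK1 window held 2 matches, both on the strand of the gene and with their first bases 95 and 76 bases before the start, and the SFRP5 window held 0. Of the 37 genes, 21 had a window in the table, and DKK1 was the single one with a match, so that 4.76% of them had one, against 13.9% of all 27305 windows. Windows of LGR6, FZD1 and NKD2, the other called genes in the table, held none either. The median GC content was 72% over the 21 windows and 58.3% over all. A match in these letters is a description and does not show a bound site.

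The remaining secreted inhibitors of the Dickkopf and sFRP families did not pass the test. DKK3, a divergent family member, had values of -0.58, -0.24 and -0.02 on the NHE3kd arrays and -0.30, -0.06 and 0.35 on the Ctrl arrays, which overlapped (log2 difference -0.28, 95% interval -0.81 to 0.25, and -0.43 to -0.10 with an array left out). DKK2 had a small difference of -0.13 with NHE3kd arrays all below Ctrl arrays (adjusted p = 0.075 from limma). DKK4 had one of 0.14 that rested on NHE3kd 10 (0.60, against -0.13 and -0.04 on NHE3kd 2 and 3), and without that array it was -0.09. SFRP1, SFRP2 and SFRP4 differed by 0.06, -0.05 and -0.01. Of the 8 measured inhibitors of these families, 2 were thus lower, 0 were higher and 6 were not called, where 4.51% of all named genes were lower and 9.96% higher.

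**Figure D2:**
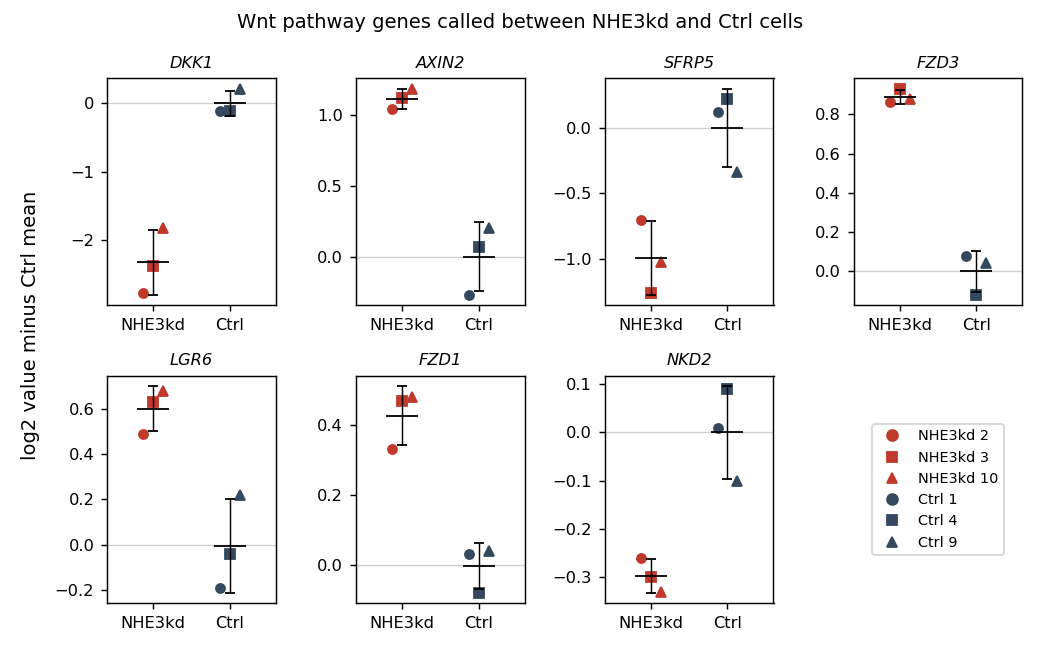
Log2 value minus the Ctrl mean (y axis, a scale of its own for each gene) on each NHE3kd array and each Ctrl array (x axis) for the 7 called Wnt pathway genes. Symbols tell the arrays of a group apart, and bars give the mean and SD of 3 arrays. In each panel the NHE3kd arrays lie on the same side of all Ctrl arrays, at -2.77 to -1.82 for DKK1 and at 1.04 to 1.18 for AXIN2.

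AXIN2, the inducible scaffold of the destruction complex and a widely used readout of beta-catenin activity, was higher in NHE3kd cells. Its values were 1.04, 1.12 and 1.18 on NHE3kd arrays 2, 3 and 10, against -0.27, 0.07 and 0.20 on Ctrl arrays 1, 4 and 9. The NHE3kd arrays lay close together (SD 0.07) and well above the Ctrl arrays (SD 0.24, n = 3 each). AXIN2 was 2.16-fold higher (log2 1.11, SE 0.13, adjusted p = 0.0084 from limma), and it was called without any single array. AXIN1, the scaffold that is made constantly, had values of -0.13, -0.10 and -0.14 on the NHE3kd arrays and -0.03, 0.03 and 0.01 on the Ctrl arrays. These groups did not overlap either, but the difference of -0.13 did not pass the test (95% interval -0.21 to -0.05, adjusted p = 0.080 from limma).

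The Naked proteins bind Dishevelled and dampen the signal inside the cell. NKD2 stood at -0.26, -0.30 and -0.33 on the NHE3kd arrays and at 0.01, 0.09 and -0.10 on the Ctrl arrays. Its groups were apart by a small margin, and it was 1.23-fold lower in NHE3kd cells (log2 -0.30, SE 0.05, adjusted p = 0.031 from limma). NKD1, its relative and the better known target in colon cancer, had values of -0.01, -0.05 and 0.27 on the NHE3kd arrays and 0.09, 0.03 and -0.12 on the Ctrl arrays (log2 difference 0.07, 95% interval -0.19 to 0.33). The overlap of NKD1 was broad. The call of NKD2 was lost when any array other than Ctrl 9 was left out (adjusted p up to 0.11 from limma).

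The ubiquitin ligases that remove Frizzled from the cell surface showed no call. ZNRF3 had values of 0.17, 0.16 and 0.27 on the NHE3kd arrays and 0.04, -0.08 and 0.04 on the Ctrl arrays, with no overlap (log2 difference 0.20, 95% interval 0.08 to 0.33, adjusted p = 0.076 from limma). RNF43 had values of -0.38, -0.42 and -0.10 on the NHE3kd arrays, against -0.27, -0.13 and 0.40 on the Ctrl arrays. Its groups overlapped, with Ctrl 9 as the highest array, and the interval of the difference was wide (-0.30, 95% interval -0.78 to 0.19). Without Ctrl 9 the difference of RNF43 was -0.10. LEF1, the measured TCF/LEF factor, stood at 0.07, 0.08 and 0.50 on the NHE3kd arrays and at -0.16, 0.09 and 0.06 on the Ctrl arrays, so NHE3kd 10 alone lay above all Ctrl arrays (log2 difference 0.22, 95% interval -0.12 to 0.56).

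Of the 10 Frizzled receptors, all of which were measured, FZD3 and FZD1 were higher in NHE3kd cells and 0 were lower, where 9.96% of all named genes were higher and 4.51% lower. FZD3, a receptor known for its part in axon guidance and planar cell polarity, had values of 0.86, 0.93 and 0.88 on NHE3kd arrays 2, 3 and 10, against 0.08, -0.12 and 0.04 on Ctrl arrays 1, 4 and 9. With so little spread it had the smallest p of the 37 genes, at a 1.85-fold difference (log2 0.89, SE 0.06, adjusted p = 0.0027 from limma), and it kept the call without any single array. FZD1 stood at 0.33, 0.47 and 0.48 on the NHE3kd arrays and at 0.03, -0.08 and 0.04 on the Ctrl arrays. It was 1.35-fold higher (log2 0.43, SE 0.06, adjusted p = 0.014 from limma), and the call was lost without NHE3kd 3 (adjusted p = 0.062 from limma).

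The other 8 Frizzled receptors had log2 differences from -0.10 for FZD10 to 0.31 for FZD5. FZD6, which signals mainly outside the beta-catenin branch, had values of 0.19, 0.50 and 0.22 on the NHE3kd arrays and 0.00, -0.01 and 0.01 on the Ctrl arrays. Its NHE3kd arrays were all higher, but NHE3kd 3 stood apart from the other two, and the gene did not pass the test (0.30, adjusted p = 0.11 from limma). FZD5, an intestinal Wnt receptor, had 0.35, 0.12 and 0.46 on the NHE3kd arrays and 0.06, 0.16 and -0.22 on the Ctrl arrays, which overlapped (adjusted p = 0.26 from limma). FZD7, a receptor of intestinal stem cells, ranged from -0.18 to 0.32 in NHE3kd and from -0.12 to 0.23 in Ctrl cells. FZD4 (0.12), FZD2 (-0.08), FZD8 (0.02) and FZD9 (0.00) completed the family. The noncoding genes FZD4-DT (0.03) and FZD10-AS1 (0.00) did not pass the test.

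Of the co-receptors, LRP6 had values of 0.14, 0.31 and 0.30 on the NHE3kd arrays and 0.15, 0.01 and -0.16 on the Ctrl arrays (log2 difference 0.25, 95% interval 0.02 to 0.48, adjusted p = 0.20 from limma). LRP5 had values of -0.21, -0.09 and 0.09 on the NHE3kd arrays and -0.08, 0.04 and 0.05 on the Ctrl arrays (-0.07, 95% interval -0.28 to 0.14). The arrays of the groups overlapped for both. WNT2, a ligand made in the intestine mainly by stromal cells, differed by -0.06 (95% interval -0.15 to 0.03).

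Among the R-spondin receptors LGR6 was higher, with 0.49, 0.63 and 0.68 on NHE3kd arrays 2, 3 and 10, against -0.19, -0.04 and 0.22 on Ctrl arrays 1, 4 and 9. All NHE3kd arrays lay above Ctrl 9, the highest Ctrl array, and the gene was 1.51-fold higher (log2 0.60, SE 0.11, adjusted p = 0.034 from limma). As for SFRP5 and NKD2, its call was lost when any array other than Ctrl 9 was left out (adjusted p up to 0.13 from limma). LGR4, the receptor with the broadest expression, had values of 0.21, 0.30 and 0.57 on the NHE3kd arrays and -0.05, -0.19 and 0.24 on the Ctrl arrays, where NHE3kd 2 lay below Ctrl 9 (log2 difference 0.36, 95% interval 0.00 to 0.72, adjusted p = 0.23 from limma). LGR5, the marker of crypt stem cells and a known beta-catenin target, stood at 0.17, -0.06 and 0.01 in NHE3kd cells and at 0.10, 0.00 and -0.10 in Ctrl cells. Its groups overlapped, with NHE3kd 2 above all Ctrl arrays and Ctrl 9 below all NHE3kd arrays (0.04, 95% interval -0.16 to 0.23). The ligands RSPO1, RSPO2, RSPO3 and RSPO4 had log2 differences of -0.20, -0.12, -0.02 and -0.14, and 0 of these 4 passed the test.

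A list of 86 other components of the pathway held 59 measured genes, of which 7 were higher, 3 were lower and 49 were not called (16.9% called, beside the 14.5% of all named genes). Their median log2 difference was 0.02. The list was drawn up with earlier results of these data known, so its called share is a description. The kinase GSK3B, which phosphorylates beta-catenin for destruction, was lower, at -0.59, -0.74 and -0.50 on the NHE3kd arrays and -0.02, -0.03 and 0.05 on the Ctrl arrays (log2 -0.61, SE 0.07, adjusted p = 0.0080 from limma). It was the single gene of the 10 that was called whichever array was left out. The corepressor CTBP1 (-0.36) and the polarity protein PRICKLE2 (-0.63) were also lower. The value of PRICKLE2 is the mean of 2 probe sets, of which the one with the smaller p had -1.19, and its call was lost when any array other than NHE3kd 10 was left out.

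The 7 that were higher were BTRC (0.74), which recognizes phosphorylated beta-catenin for the proteasome, the kinase MAP3K7 (0.67) and its partner TAB2 (0.48), which act in several pathways, the cell surface proteoglycan GPC4 (0.61), DAAM1 (0.54), which links Dishevelled to the cytoskeleton, and the chromatin regulators HDAC1 (0.45) and CREBBP (0.36). Genes that act in the destruction of beta-catenin thus differed in opposite directions, GSK3B being lower and BTRC higher. The call of BTRC was lost without Ctrl 1, Ctrl 4 or NHE3kd 3. APC, the scaffold lost in most colon cancers, differed by -0.17 (95% interval -0.43 to 0.09). WLS, which carries Wnt proteins to the cell surface, differed by -0.24 (95% interval -0.56 to 0.07). The number of calls fell to 2 without NHE3kd 3 (GPC4 and GSK3B) and to 3 without Ctrl 4 (CTBP1, GSK3B and MAP3K7). Over all 48144 probe sets it fell from 4206 to 1685 without NHE3kd 3 and to 1916 without Ctrl 4.

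**Figure D3:**
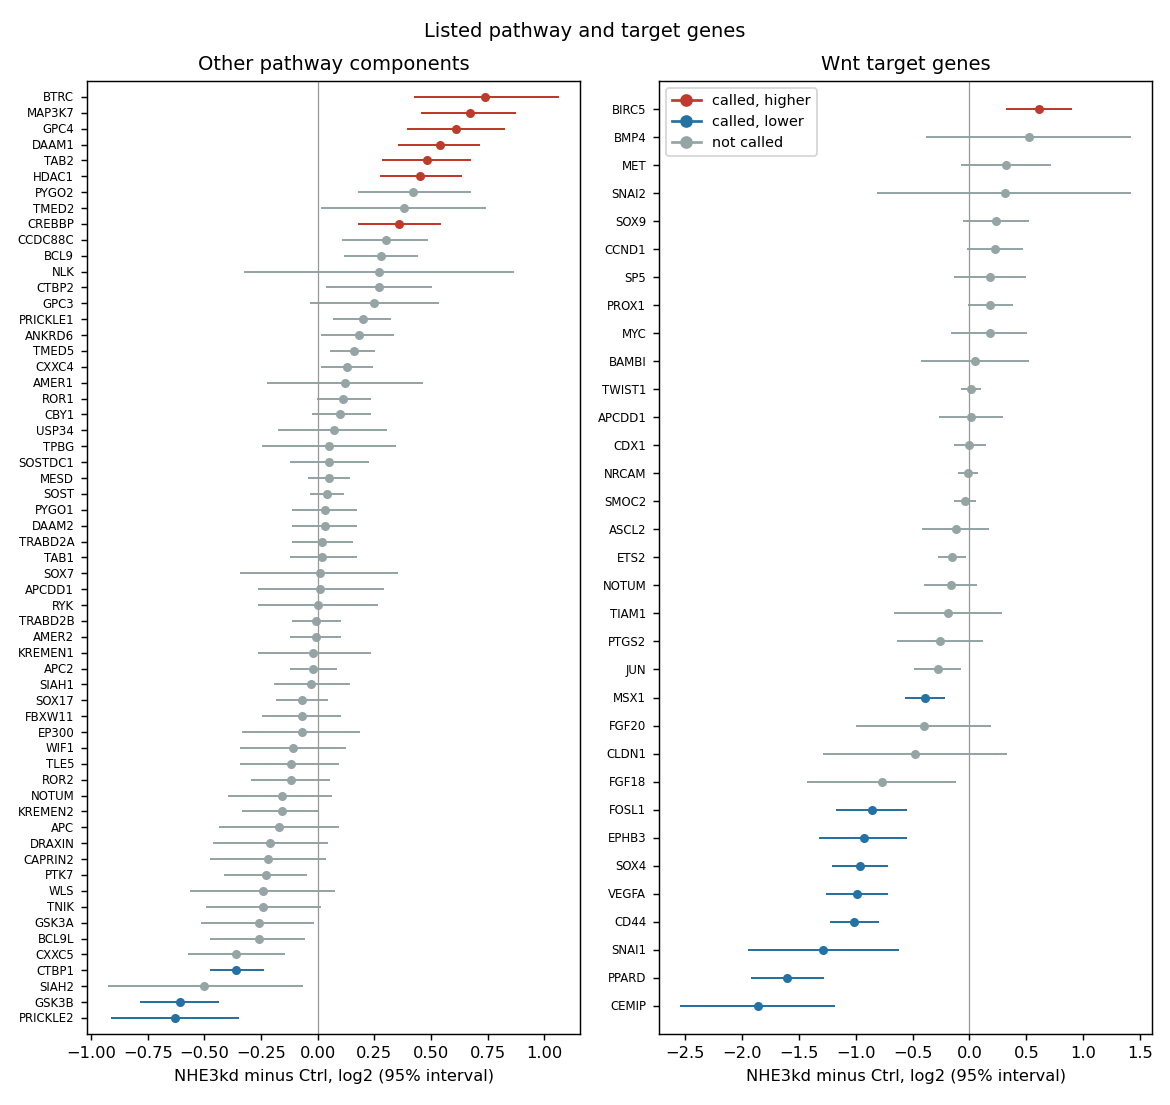
Log2 difference between NHE3kd and Ctrl cells (x axes) for 59 other pathway components and 33 target genes (y axes), each list in order of its differences. Points are limma estimates from 3 NHE3kd and 3 Ctrl arrays and bars are 95% intervals. Among the components GSK3B, PRICKLE2 and CTBP1 are the called genes below 0, and among the targets CEMIP lies lowest at -1.86 and BIRC5 is the single called gene above 0.

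A list of 41 genes known as Wnt targets in the intestine or in colon cancer held 33 measured genes, of which 1 was higher, 9 were lower and 23 were not called (30.3% called, beside the 14.5% of all named genes). Their median log2 difference was -0.15. This list was also drawn up with earlier results of these data known, so its called share is a description and not a test. The largest fall was that of CEMIP, a hyaluronan-degrading protein of invasive cells, at -2.26, -1.98 and -1.35 on the NHE3kd arrays and -0.01, -0.28 and 0.29 on the Ctrl arrays (log2 -1.86, SE 0.27, adjusted p = 0.016 from limma). The nuclear receptor PPARD stood at -1.61, -1.84 and -1.35 on the NHE3kd arrays, against -0.04, -0.03 and 0.07 on the Ctrl arrays (log2 -1.60, SE 0.13, adjusted p = 0.0035 from limma). In both genes every NHE3kd array was below every Ctrl array by more than the spread within either group.

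Other lower targets were the transcription factors SOX4 (-0.96), FOSL1 (-0.86), MSX1 (-0.39) and SNAI1 (-1.29), the receptor EPHB3 (-0.93), which sorts crypt cells, CD44 (-1.01) and VEGFA (-0.99). BIRC5, an inhibitor of apoptosis whose expression follows cell division, was higher (0.61). The classical targets MYC (0.18, 95% interval -0.15 to 0.50), CCND1 (0.22, -0.01 to 0.46), SP5 (0.18, -0.13 to 0.49), ASCL2 (-0.12, -0.41 to 0.16) and NOTUM (-0.16, -0.39 to 0.06) did not pass the test, and these were singled out after their values were seen. AXIN2, which is not in this list, was higher, while 9 of the 10 called genes of the list were lower. Of the other targets left out of it, DKK1 was lower (-2.32), and LGR5 (0.04) and NKD1 (0.07) were not called. Within the list, CD44, PPARD, SOX4 and VEGFA were called whichever array was left out. Each of the other 6 called genes of the list lost its call in at least 1 such fit. Without NHE3kd 3 the number of called targets was 4, and without Ctrl 4 it was 6. The calls over all 48144 probe sets fell from 4206 to 1685 and to 1916 in these fits.

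The calls of the 7 genes depended on the array left out and on the test. DKK1, AXIN2 and FZD3 were called in each of the 6 fits with an array left out, FZD1 in 5, and SFRP5, LGR6 and NKD2 in 1. Without the moderation of variances across probe sets only FZD3 passed (adjusted p = 0.034), and with the arrays quantile normalized only DKK1 did (adjusted p = 0.048). Of all 48144 probe sets, 4206 were called with limma, 840 without the moderation and 478 after quantile normalization. Among the 6 fits with an array left out, the one without Ctrl 9 kept the most calls over all probe sets (3682).

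**Figure D4:**
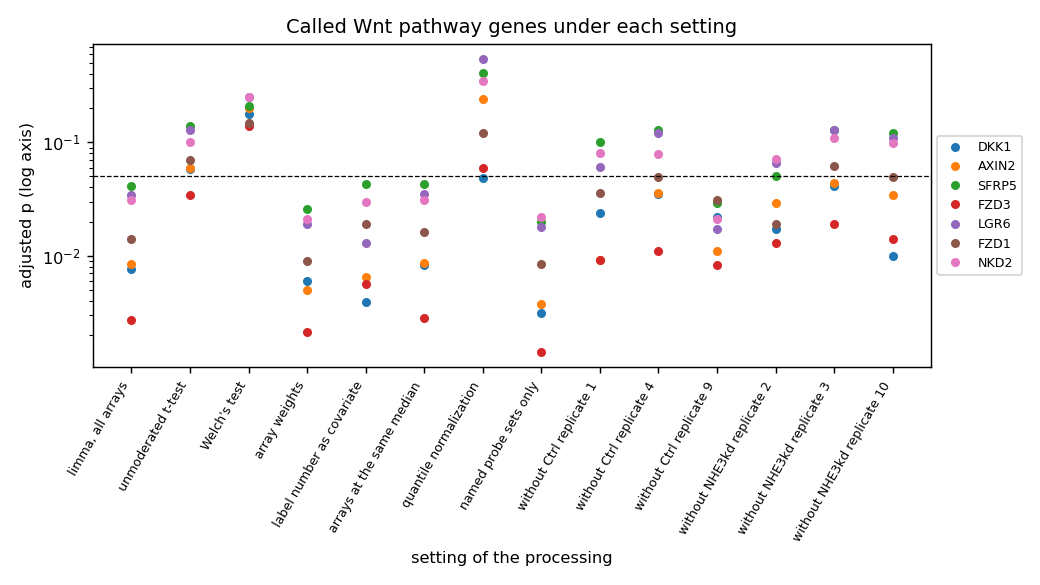
Adjusted p on a log axis (y axis) for the 7 called Wnt pathway genes under each setting of the processing (x axis), with the threshold of 0.05 as a dashed line. FZD3, AXIN2 and DKK1 stay under the line in every fit with an array left out, while SFRP5, LGR6 and NKD2 lie under it in that part of the plot only without Ctrl 9.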

How the data were processed

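Affymetrix Human Gene 2.0 ST arrays were hybridized with SK-CO15 RNA (3 NHE3kd, 3 Ctrl). The deposited log2 values were made by the authors with the RMA16 algorithm of GeneSpring GX and set relative to the mean of the Ctrl samples. The build in the submitters' processing notes is hg19. Values ran from -4.36 to 3.84 with unknown expression level. Of 48144 probe sets, 16098 had a single gene symbol in the platform annotation (14884 genes), 0 had several and 32046 had none.

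NHE3kd was compared with Ctrl over all probe sets by limma 3.58.1 under R 4.3.3, by a two-sided moderated test (lmFit, eBayes). The mean of a gene's probe sets was tested with the prior variance of that fit, and its p was read off the adjustment curve. Fits were tested on simulated data. Members and lists were chosen with earlier results of these data known. Named in detail are called members, those with groups apart and a difference of at least 0.3, and the largest of each role. So are 7 readout genes by choice, of which TCF7 had no named probe set, and up to 12 called genes per list. The other members are given by role. APC, WLS and the targets named without a call were added outside these rules. Alternatives were an unmoderated t-test, Welch's test, array weights, the label number as covariate, equal medians, quantile normalization, named probe sets only, the probe set with the smallest p and each array left out. Promoter windows are from RefSeq (GRCh38.p14). The number of arrays limits the precision.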

Additional observations from a re-analysis of the deposited data

How the results depend on the processing

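Of the 37 Wnt pathway genes 7 were called with limma, and all of these 7 were called with array weights, the label number as covariate, arrays brought to the same median, named probe sets only, or the probe set with the smallest p. The count was 1 by a t-test without moderation (12 at an unadjusted p under 0.05), 0 by Welch's version (11), 1 after quantile normalization, and 3 to 7 with an array left out. For the 59 other pathway components, with 10 called, it was 0 by the t-test without moderation (20 at an unadjusted p under 0.05), 0 by Welch's version (16), 1 after quantile normalization, and 2 to 11 with an array left out. For the 33 targets, with 10 called, it was 2, 0 (12 by Welch's version at an unadjusted p under 0.05) and 4 under those settings, and 4 to 9 with an array left out. The calls fell in the whole series as well. Of all 48144 probe sets, 4206 were called with limma, 840 without moderation, 5 by Welch's version and 478 after quantile normalization. With an array left out, 1685 (without NHE3kd 3) to 3682 (without Ctrl 9) of all probe sets were called. Quantile normalization gives all arrays 1 shared distribution, which by construction narrows the NHE3kd values (SD 0.31 to 0.33) and widens the centred Ctrl values (SD 0.10 to 0.14). Among called genes it moved the log2 difference by over 1.5 times for DKK1 (-1.48), LGR6 (0.39), CEMIP (-1.17), PPARD (-1.04), SNAI1 (-0.84) and BIRC5 (0.35). Other causes were not tested. With an array left out LGR5 ran from -0.03 (without NHE3kd 2; -0.01 without Ctrl 9) to 0.09 and NKD1 from -0.03 (without NHE3kd 10) to 0.13, and neither was called. No paired analysis was made. The groups share no replicate number, and no source used here says whether arrays of the 2 groups belong together in pairs.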

Other observations

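The Ctrl arrays differed among themselves on several Wnt pathway genes. Of the 37 genes, Ctrl 9 was the array farthest from the Ctrl mean on 17 (45.9%), against 36.9% of all named genes. RNF43, DKK3 and LGR4 stood at 0.40, 0.35 and 0.24 on that array, and SFRP5 at -0.34. Within the NHE3kd group, RNF43, DKK3 and LGR4 were highest on NHE3kd 10 (-0.10, -0.02 and 0.57). SFRP5 was lowest there on NHE3kd 3 (-1.26). In the NHE3kd group array 2 was the farthest on 16 of the 37 genes (43.2%), against 37.8% of all named genes. Whether these shares differ from those of all named genes was not tested.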
